A study of Mus musculus with 2 samples.

Results

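The 7 genes described here make, branch and break down glycogen or bring protein phosphatase 1 to it: the glycogen-targeting subunits Ppp1r3g, Ppp1r3c and Ppp1r3d, the glycogen synthase gene Gys1, the branching enzyme gene Gbe1 and the phosphorylase genes Pygb and Pygm. They are 7 of the 31053 genes in the count matrices and were found there by symbol. They were chosen by measured values, since an earlier analysis of these libraries had placed Ppp1r3g among the genes with the highest ratio between the libraries in astrocyte-like cells. The ratio of Ppp1r3g and all ratios of the other members are therefore given as descriptions.

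Glycogen is the storage form of glucose, and in the brain it lies mainly in astrocytes. Glycogen synthase and the branching enzyme build it, and glycogen phosphorylase releases its glucose units. Phosphorylation switches synthase off and phosphorylase on, and protein phosphatase 1, held on the glycogen particle by a targeting subunit of the PPP1R3 family, reverses both.

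RNA was counted in single cells with droplet libraries from C57BL/6 mice aged 10 weeks, in midbrain tissue that carries the label substantia nigra pars compacta. The MNPQ group was given 3 weeks of intraperitoneal injections, 2 in each week, of 10 mg/kg paraquat followed by 30 mg/kg maneb, and the control group is called untreated in one label while the protocol describes saline. The protocol takes 3 males from each group for the cells, while another label gives the sex as pooled. Each group is 1 library in which its animals cannot be separated, so there are no replicates, no test can be made, and treatment, dissection and library cannot be told apart.

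The control library kept 882 cells with 2002640 unique molecular identifiers (UMIs, each standing for 1 captured RNA molecule) and the MNPQ library 854 cells with 1958634 UMIs, at a median depth of 974 and 945.5 UMIs per cell. Of these, 318 control and 300 MNPQ cells were astrocyte-like, with 523788 and 511592 UMIs and median depths of 826 and 772. The astrocyte name rests on 12 markers, none of which was at 0 in either library and which summed to 33773 and 31885 CPM (UMIs of a gene in every 1000000 UMIs of the class). Of the genes that define the labelled region's dopamine neurons, Th and Slc6a3 had 1 UMI each among the 882 control cells and 0 among the 854 MNPQ cells, which allows a share of MNPQ cells with a UMI of up to 0.351% and, at this depth per cell, sets no limit on the share of cells that express them. The make-up of the astrocyte-like cells differed between the libraries too. Agt, a marker of astrocytes outside the telencephalon, stood at 2008 CPM in control and 712 CPM in MNPQ cells, Itih3 at 1762 and 326 CPM, and Lhx2, a transcription factor of telencephalic astrocytes, at 76.4 and 158 CPM. In neuron-like cells Slc17a7, the vesicular glutamate transporter typical of cortex and hippocampus, stood at 356 and 767 CPM and Slc17a6, its counterpart typical of thalamus and midbrain, at 154 and 50.2 CPM.

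Ppp1r3g encodes a targeting subunit known for steering phosphatase to glycogen in the liver after feeding. It was almost wholly an astrocyte gene in these cells. In the control library all 24 of its UMIs lay in astrocyte-like cells, and in the MNPQ library 93 of 99 did (93.9%). The other 6 UMIs of the MNPQ library were spread over oligodendrocyte-like cells with 3, neuron-like and pericyte-like cells with 1 each, and smaller or unnamed clusters with 1. Microglia-like cells had 0 Ppp1r3g UMIs in both libraries, which allows up to 9.04 and 12.4 CPM (3 counts of the class total), and endothelial-like cells also had 0, which allows up to 11.5 and 10.9 CPM. These limits, like all intervals given here, cover counting error only. Astrocyte markers themselves stood in neuron-like cells at a median of 6.92% and 8.19% of their astrocyte level, and the Ppp1r3g level in MNPQ neuron-like cells was 3.94% of that in astrocyte-like cells. In MNPQ oligodendrocyte-like cells Ppp1r3g stood at 4.05% of its astrocyte level, above the median of 2.34% for the 12 markers and within their range of 1.27% to 8.91%. In MNPQ pericyte-like cells it stood at 7.24%, beside a marker median of 8.55%. With 1 to 3 UMIs in each of these classes, Ppp1r3g outside astrocyte-like cells cannot be told apart from stray astrocyte RNA.

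**Figure D1:**
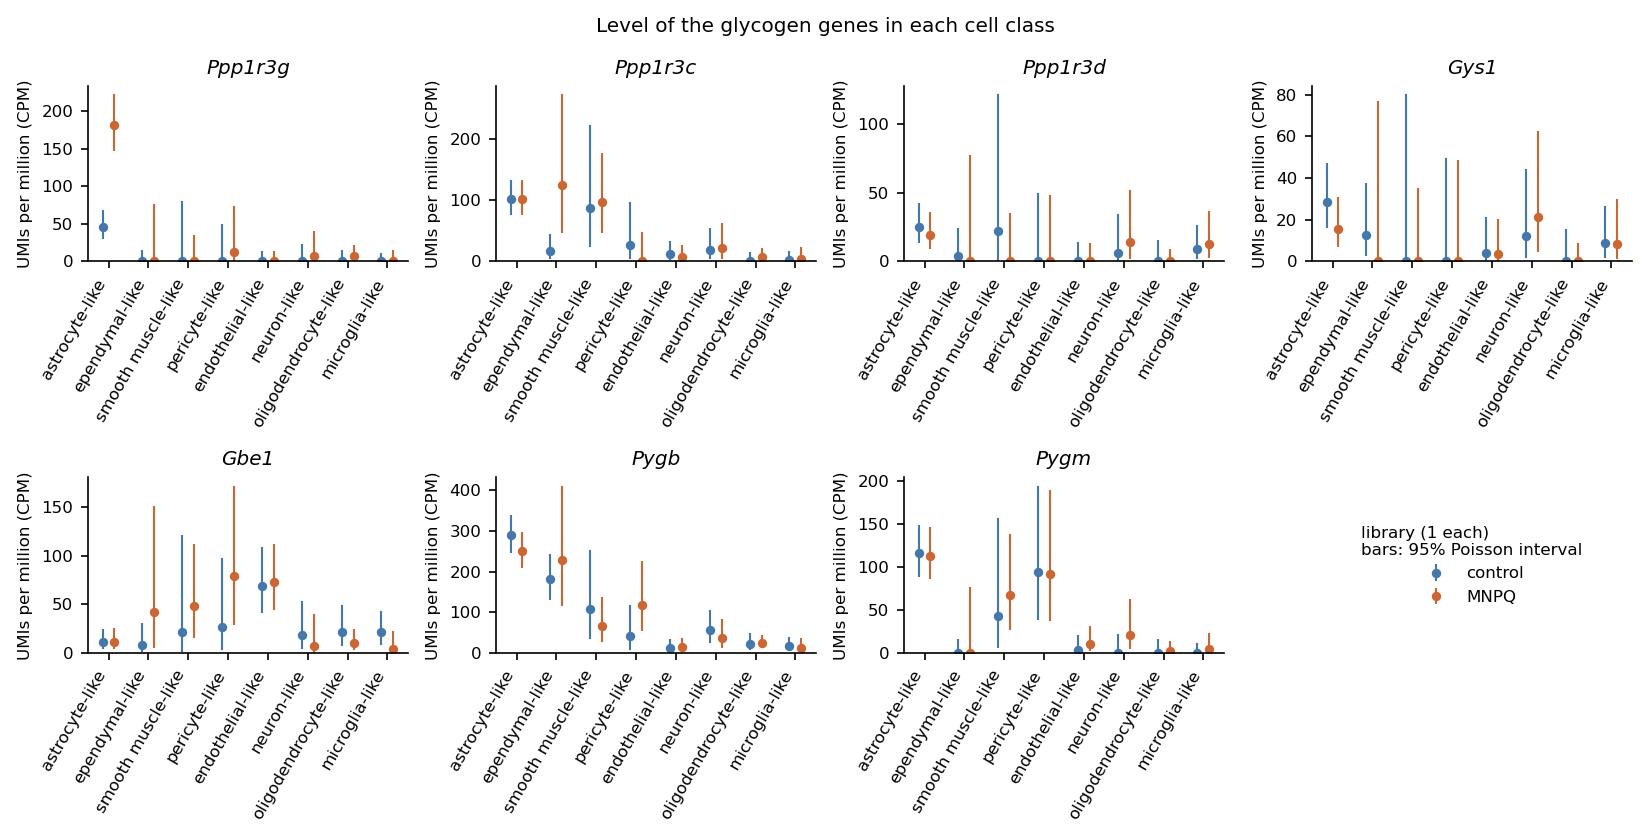
Level of each of the 7 genes in CPM (vertical axis, from 0, a scale of its own per gene) in 8 cell classes (horizontal axis) of the control library (blue) and the MNPQ library (orange). Points are levels of 1 library each and bars are exact 95% Poisson intervals; Ppp1r3g is at or near 0 outside astrocyte-like cells, while Gbe1 is higher in endothelial-like than in astrocyte-like cells. Ependymal-like and smooth muscle-like cells number fewer than 30 in at least 1 library.

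**Figure D2:**
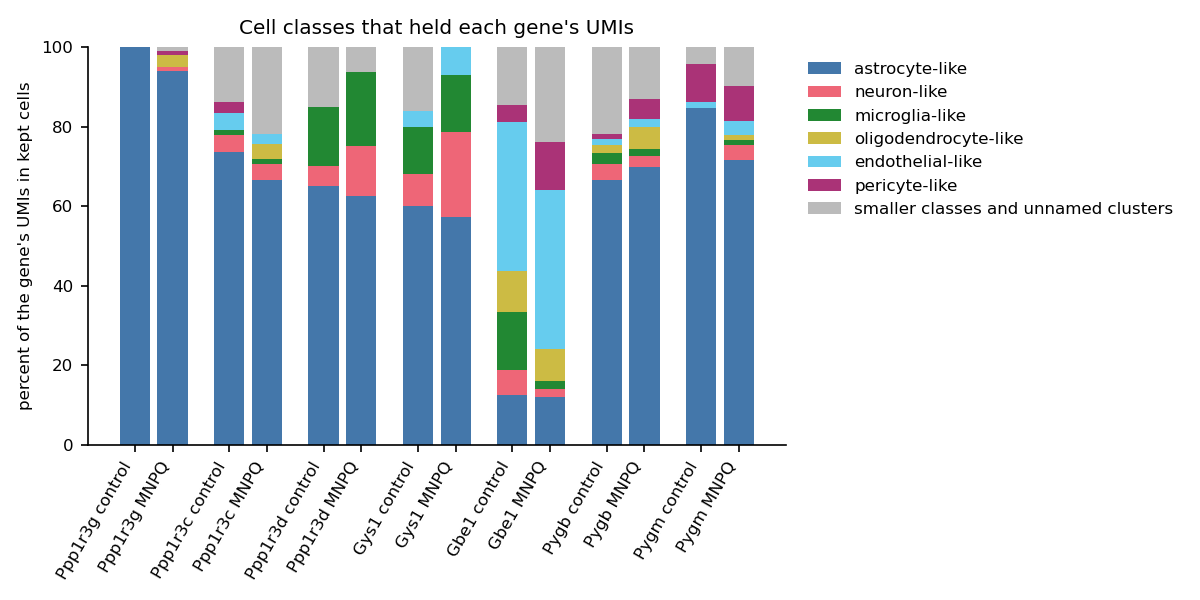
Percent of each gene's UMIs in kept cells (vertical axis) that lay in each cell class (colours), for each gene and library (horizontal axis). Astrocyte-like cells hold from 57.1% to 100% of the UMIs of 6 genes, and 12.5% and 12% of those of Gbe1.

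In astrocyte-like cells Ppp1r3g stood at 45.8 CPM in the control library (24 UMIs, 95% interval 29.4 to 68.2) and at 182 CPM in the MNPQ library (93 UMIs, 147 to 223). The log2 ratio of MNPQ over control was 1.99 (1.33 to 2.70), a 3.97-fold difference between these libraries. A cell with at least 1 Ppp1r3g UMI was found in 19 of 318 control cells (5.97%, exact 95% interval 3.64 to 9.17) and in 63 of 300 MNPQ cells (21%, 16.5 to 26.1). With each cell thinned to 500 UMIs, 8 control cells (2.52%) and 28 MNPQ cells (9.33%) had one. These shares at equal depth are drawn from the same UMIs, so they add no independent support to the ratio. Of the astrocyte-like genes with at least 20 UMIs over both libraries, 5.27% were at least 2-fold higher in the MNPQ library and 6.29% at least 2-fold lower. Among the members, 6 reached that minimum and Ppp1r3g alone was past 2-fold. Since Ppp1r3g was picked for this contrast, nothing is read from that count. Over all kept cells, where 2.45% of genes were at least 2-fold higher and 7.3% at least 2-fold lower, the log2 ratio of Ppp1r3g was 2.08 (1.42 to 2.78) from 24 and 99 UMIs, and the other 6 members lay within 2-fold.

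**Figure D3:**
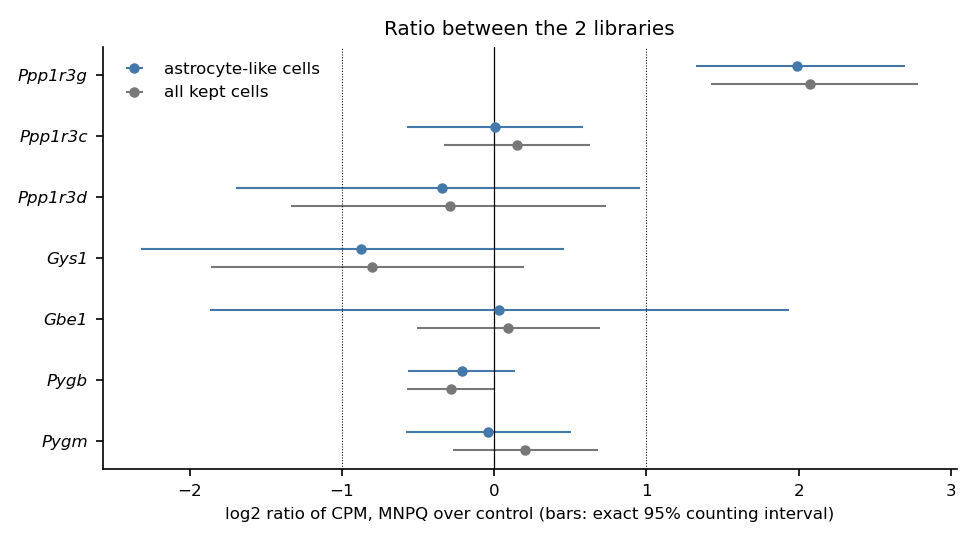
Log2 ratio of CPM, MNPQ over control (horizontal axis), for the 7 genes (vertical axis) in astrocyte-like cells (blue) and in all kept cells (grey). Points are ratios of 1 library over the other and bars are exact 95% counting intervals; dotted lines mark a 2-fold difference, and Ppp1r3g at 1.99 and 2.08 lies past it while the other 6 do not.

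The same 24 and 93 Ppp1r3g UMIs can be described by the kind of astrocyte-like cell that held them, which adds no independent support to the ratio. The astrocyte-like cells fell into 3 clusters: a deep one (108 control and 62 MNPQ cells, median 2603 and 4716.5 UMIs), a shallow one (143 and 233 cells) and a shallow one led by Itih3 (67 and 5 cells). In the deep cluster Ppp1r3g had 17 and 50 UMIs, or 47.5 and 160 CPM, a log2 ratio of 1.75 (0.93 to 2.63). The shallow cluster had 7 and 43 UMIs and a log2 ratio of 1.88 (0.72 to 3.28), but Ppp1r3g is among the 10 leading genes of that cluster, so its level there is no finding. Of the astrocyte-like cells, that cluster held 45% in the control and 77.7% in MNPQ. The Itih3-led cluster had 0 Ppp1r3g UMIs in both libraries. It held 49487 and 3695 UMIs of all genes, too few to tell its Ppp1r3g level from that of all astrocyte-like cells.

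Because Agt and Lhx2 differed between the libraries, Ppp1r3g was also counted in deep cells, those with at least 1000 UMIs, split by whether they held a UMI of either gene. In deep cells with Agt (99 control and 45 MNPQ cells) it stood at 31.1 and 118 CPM, and in those without Agt (33 and 60 cells) at 102 and 250 CPM. The intervals of these kinds of cell did not overlap in the MNPQ library (77 to 173 with Agt, 179 to 341 without it) and overlapped in the control (14.9 to 57.1 and 44.2 to 202), and cells without Agt were shallower, at a median of 1406 and 1664.5 UMIs against 2642 and 4156. The log2 ratio was 1.92 (0.82 to 3.14) with Agt and 1.29 (0.18 to 2.60) without it, the smallest of any split. In deep cells with Lhx2 (15 and 36 cells) Ppp1r3g stood at 58.6 and 223 CPM, a log2 ratio of 1.93 (0.45 to 3.89), and in those without Lhx2 (117 and 69 cells) at 42.2 and 139 CPM, a log2 ratio of 1.72 (0.76 to 2.74). The kinds of cell overlap, and in these 4 the MNPQ level was above the control level, with intervals that overlapped in cells without Agt. The part that unlike astrocyte populations within these kinds play in the ratio was not tested.

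**Figure D4:**
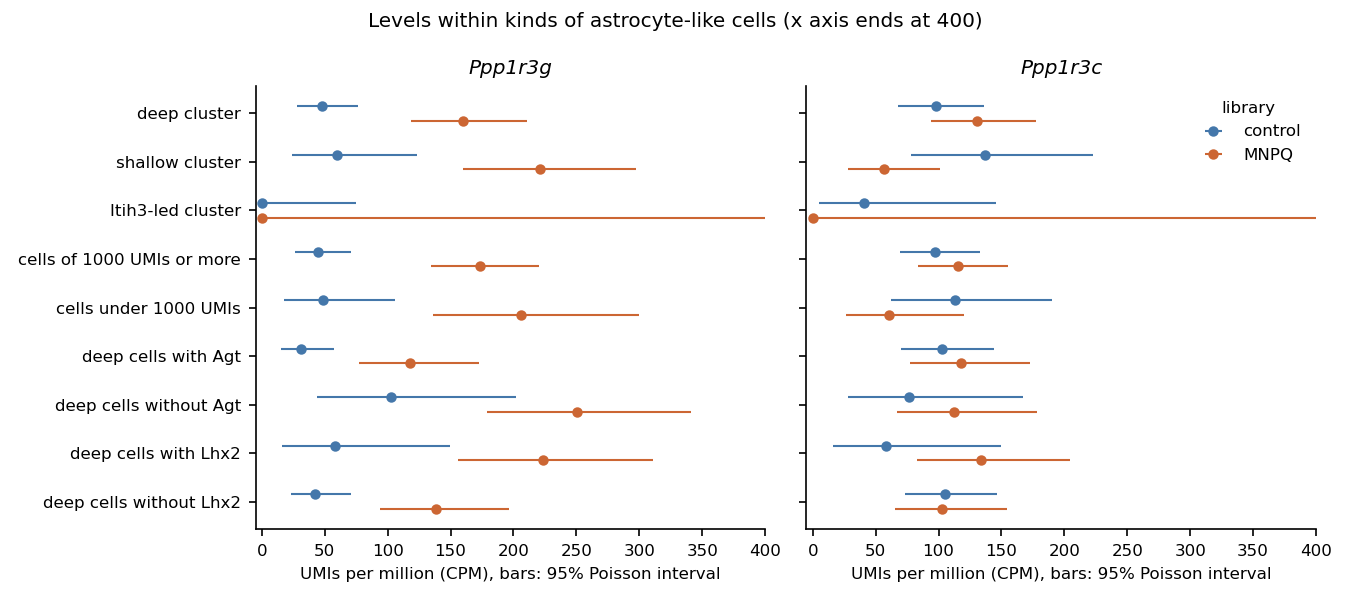
Levels of Ppp1r3g (left) and Ppp1r3c (right) in CPM (horizontal axes) in the 3 astrocyte-like clusters and in astrocyte-like cells split by depth, Agt and Lhx2 (vertical axis), in the control (blue) and MNPQ (orange) libraries. Bars are exact 95% Poisson intervals, and those of the Itih3-led cluster in the MNPQ library, with 5 cells, run past the end of the axis at 400; the kinds overlap, Ppp1r3g is a leading gene of the shallow cluster, and outside the Itih3-led cluster its MNPQ points lie above its control points, while those of Ppp1r3c lie on either side.

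Ppp1r3c encodes the targeting subunit also called protein targeting to glycogen. It was at close levels in astrocyte-like cells of both libraries, 101 CPM in control cells (53 UMIs, 75.8 to 132) and 102 CPM in MNPQ cells (52 UMIs, 75.9 to 133). The log2 ratio was 0.01 (-0.57 to 0.59), and this interval, for the class as a whole, ends short of 2-fold in either direction. Shares of astrocyte-like cells with a UMI were 13.5% and 13.7%. At equal depth they lay apart: with each cell thinned to 500 UMIs, 16 control cells (5.03%, 2.90 to 8.04) and 6 MNPQ cells (2%, 0.737 to 4.30) had a Ppp1r3c UMI, with intervals that overlap. That draw kept 16 control and 7 MNPQ UMIs, where 16.1 and 10.4 were expected, and its log2 ratio was -1.11. The clusters differed as well: in the shallow cluster Ppp1r3c stood at 137 and 56.5 CPM from 16 and 11 UMIs, a log2 ratio of -1.28 (-2.53 to -0.08), and in the deep cluster at 97.9 and 131 CPM from 35 and 41 UMIs, a log2 ratio of 0.42 (-0.27 to 1.11). The difference between those clusters was not tested.

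As a share of the UMIs of Ppp1r3g and Ppp1r3c together in astrocyte-like cells, Ppp1r3g made up 31.2% of control UMIs (24 of 77, 21.1 to 42.7) and 64.1% of MNPQ UMIs (93 of 145, 55.8 to 71.9). Of the UMIs of all 7 members it made up 7.41% of 324 and 26.2% of 355. Both pairs of shares restate the 24 and 93 Ppp1r3g UMIs of the contrast for which the gene was picked. They are therefore no separate finding. Among deep astrocyte-like cells with Ppp1r3g, 6 of 13 control and 18 of 40 MNPQ cells also held a Ppp1r3c UMI, beside 29 of 132 and 34 of 105 of all deep astrocyte-like cells. Pygb was found in 12 of those 13 control and 26 of those 40 MNPQ cells, beside 70 of 132 and 58 of 105 of all deep ones. Cells with more UMIs hold more of every gene, and the part of depth in these counts was not tested.

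Outside astrocyte-like cells, Ppp1r3c was also found in smooth muscle-like cells, at 87 CPM (4 UMIs in 10 cells, 23.7 to 223) and 96.2 CPM (10 UMIs in 17 cells, 46.1 to 177). Ppp1r3g had 0 UMIs in those cells. In ependymal-like cells, which line the ventricles, Ppp1r3c had 4 UMIs in 29 control cells and 6 UMIs in 6 MNPQ cells, or 17.2 CPM (4.69 to 44) and 125 CPM (45.9 to 273). Those intervals do not overlap, but the MNPQ value comes from 6 cells. By the likeness of levels over 12 profiles (6 classes in 2 libraries, 8384 genes with at least 60 UMIs), the genes nearest to Ppp1r3g were Gm266 with a Pearson r of 0.977, Gas1 with 0.972, Dbx2 with 0.962, Rfx4 with 0.953 and Scrg1 with 0.951. Those nearest to Ppp1r3c were Sox6 with 0.95, Eno1b with 0.944, Mdk with 0.943, Sh3pxd2b with 0.935 and Gpld1 with 0.932. The profiles of Ppp1r3g and Ppp1r3c correlated at 0.751. The profiles share libraries and depth, so these are descriptions of where the genes lay.

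Ppp1r3d encodes a further targeting subunit and was sparse. It lies on chromosome 2 from 178411206 to 178414472 (ENSMUSG00000049999, minus strand). It had 13 UMIs in control and 10 in MNPQ astrocyte-like cells, or 24.8 and 19.5 CPM, a log2 ratio of -0.34 (-1.69 to 0.96). A 2-fold lower level lies within that interval, so these counts do not exclude such a difference. Microglia-like cells held 3 Ppp1r3d UMIs in each library (9.04 and 12.4 CPM).

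The starts of Ppp1r3g and Ppp1r3c are shown because these subunits share a cell type. Any part of the sequences in the ratios between the libraries was not tested. Ppp1r3g (ENSMUSG00000050423) lies on chromosome 13 from 35958839 to 35970388 on the plus strand of mm10, and the gene Gm30127 overlaps it on the other strand. Ppp1r3c (ENSMUSG00000067279) lies on chromosome 19 from 36731731 to 36736653 on the minus strand. The stretches below are from RefSeq (GRCm38.p6), 5′ to 3′ on the gene's strand, and end where annotated exons begin: chr13:35967756-35967852 for Ppp1r3g, within the annotated span of a longer transcript, and chr19:36736654-36736754 for Ppp1r3c. Capitals mark a CACGTG and a CCAAT box, read here on the other strand.
Ppp1r3g: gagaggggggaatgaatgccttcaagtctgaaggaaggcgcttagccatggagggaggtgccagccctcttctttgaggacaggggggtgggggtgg
Ppp1r3c: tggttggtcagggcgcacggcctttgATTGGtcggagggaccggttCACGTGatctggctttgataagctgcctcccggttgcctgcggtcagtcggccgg

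In the 250 bases before each RefSeq start, which for some starts include annotated exon bases, CACGTG (the same on both strands) was found in Ppp1r3c and Ppp1r3d, 2 of the 7 members, against 6.02% of 32851 promoters. CCAAT on either strand was found in 3 of 7, Ppp1r3g, Ppp1r3c and Gys1, against 33.8%. The shorter ACGTG, which every CACGTG contains, was found on either strand in 5 of 7 against 16.6%. TGACG was found in 3 of 7 against 17.8%, and GGGCGG in 3 of 7 against 32.7%, also on either strand. These are matches of letters, not sites. Every match counted for Ppp1r3g lay in, or ran into, the 53 annotated exon bases before its start. The stretch shown for Ppp1r3g therefore holds none of its matches whole.

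Gys1 encodes the glycogen synthase of muscle and brain. It lies on chromosome 7 from 45434844 to 45456619 (ENSMUSG00000003865, plus strand) and overlaps Ruvbl2 on the other strand, and how strand was used in counting is not given in the sources used here. In astrocyte-like cells it had 15 control and 8 MNPQ UMIs, or 28.6 CPM (16 to 47.2) and 15.6 CPM (6.75 to 30.8). The log2 ratio was -0.87 (-2.32 to 0.46), and over all kept cells it was -0.80 (-1.86 to 0.19) from 25 and 14 UMIs. The lower count in the MNPQ library is within counting error of no difference. Astrocyte-like cells held 60% and 57.1% of the Gys1 UMIs. Its level in MNPQ neuron-like cells, 21.5 CPM from 3 UMIs (4.43 to 62.8), could not be told from that in astrocyte-like cells.

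Gbe1 encodes the enzyme that adds branches to the growing chain. Its level was higher in endothelial-like than in astrocyte-like cells. It lies on chromosome 16 from 70313949 to 70569716 (ENSMUSG00000022707, plus strand). In endothelial-like cells it stood at 68.9 CPM in control cells (18 UMIs, 40.9 to 109) and 72.6 CPM in MNPQ cells (20 UMIs, 44.4 to 112), against 11.5 CPM (4.2 to 24.9) and 11.7 CPM (4.3 to 25.5) in astrocyte-like cells, with 6 UMIs in each library. The intervals of the endothelial-like and astrocyte-like levels did not overlap in either library. The log2 ratio between libraries was 0.08 (-0.92 to 1.08) in endothelial-like cells and 0.09 (-0.51 to 0.69) over all kept cells, from 48 and 50 UMIs. Pericyte-like cells, which wrap capillaries, had 2 and 6 Gbe1 UMIs and levels of 27 and 79 CPM, with intervals that overlapped.

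Pygb encodes the brain form of glycogen phosphorylase and had the most UMIs of the 7 genes. It lies on chromosome 2 from 150786735 to 150831758 (ENSMUSG00000033059, plus strand). Astrocyte-like cells held 152 control and 128 MNPQ UMIs, or 290 CPM (246 to 340) and 250 CPM (209 to 297), a log2 ratio of -0.21 (-0.56 to 0.13). The astrocyte-like cells with a Pygb UMI made up 32.4% in the control and 29% in MNPQ. With each cell thinned to 500 UMIs the shares were 13.2% and 13.3%. Over all kept cells Pygb had 228 and 183 UMIs and a log2 ratio of -0.29 (-0.57 to 0.00).

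Ependymal-like cells also held Pygb, at 181 CPM (42 UMIs in 29 cells, 130 to 244) and 230 CPM (11 UMIs in 6 cells, 115 to 411), with intervals that overlap those of astrocyte-like cells in the MNPQ library. In the control library the ependymal-like interval ends at 244 and the astrocyte-like one begins at 246. Neuron-, microglia-, oligodendrocyte-, endothelial- and pericyte-like cells lay between 11.5 and 118 CPM. The MNPQ library held 6 ependymal-like cells and the control 29, and the part of that in the all-cell ratio of Pygb was not tested.

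Pygm encodes the muscle form of phosphorylase, which astrocytes also use. It lies on chromosome 19 from 6384399 to 6398459 (ENSMUSG00000032648, plus strand). It stood at 116 CPM in control astrocyte-like cells (61 UMIs, 89.1 to 150) and 113 CPM in MNPQ ones (58 UMIs, 86.1 to 147), a log2 ratio of -0.04 (-0.58 to 0.50). Pericyte-like cells had 7 UMIs in each library, at 94.5 CPM (38 to 195) and 92.1 CPM (37 to 190), a level not told apart from that of astrocyte-like cells. Ependymal-like cells had 0 Pygm UMIs in both libraries, which allows up to 12.9 and 62.6 CPM, in contrast to their Pygb. As a share of the UMIs of both phosphorylases in astrocyte-like cells, Pygb made up 71.4% (64.8 to 77.3) of 213 UMIs in the control and 68.8% (61.6 to 75.4) of 186 in the MNPQ library, and the intervals overlap.

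Of the 43 other genes of the glycogen pathway list, 21 reached 20 UMIs in astrocyte-like cells, with 15 higher and 6 lower in the MNPQ library and a median log2 ratio of 0.16, beside 0.07 for all 5820 genes measured, of which 55.5% were higher and 44.5% lower. The interval lay above 0 for 6 of the 21 and below 0 for 2, beside 13.5% and 8.9% of all genes measured. Above 0 were 2 other glycogen enzymes and 2 catalytic subunits or inhibitors of protein phosphatase 1. So were 1 kinase and 1 gene of glucose entry or exit, and not all of these genes are named here. Both below 0 were subunits of phosphorylase kinase. Past 2-fold were Prkaca, the catalytic subunit of protein kinase A, with 17 and 41 UMIs (32.5 and 80.1 CPM, log2 ratio 1.30, 0.46 to 2.21), and Phka1, a regulatory subunit of phosphorylase kinase, with 33 and 10 UMIs (63 and 19.5 CPM, log2 ratio -1.69, -2.87 to -0.63). That is 1 of 21 higher and 1 of 21 lower, beside 5.27% and 6.29% of all genes measured. Nothing about the pathway is read from these counts. Phosphorylase kinase is the enzyme that switches phosphorylase on, and protein kinase A acts above it. The catalytic subunit Phkg1 was also lower, at 248 and 158 CPM from 130 and 81 UMIs (log2 ratio -0.65, -1.07 to -0.24), while Phkb and Phkg2 had intervals that included 0.

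The most abundant gene of the list was Ugp2, which makes the UDP-glucose that synthase uses. It had 169 and 219 UMIs (323 and 428 CPM), a log2 ratio of 0.41 (0.11 to 0.71). Gaa, the lysosomal enzyme that degrades glycogen, had a log2 ratio of 0.62 (0.07 to 1.18), and the phosphatase catalytic subunit gene Ppp1cc one of 0.80 (0.12 to 1.50). The other targeting subunits were at or near 0 in astrocyte-like cells: Ppp1r3a and Ppp1r3b had 0 UMIs in both libraries, Ppp1r3e 1 and 0, and Ppp1r3f 2 and 3. None of the 6 receptors for glycogen-mobilising signals reached 20 UMIs there.

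**Figure D5:**
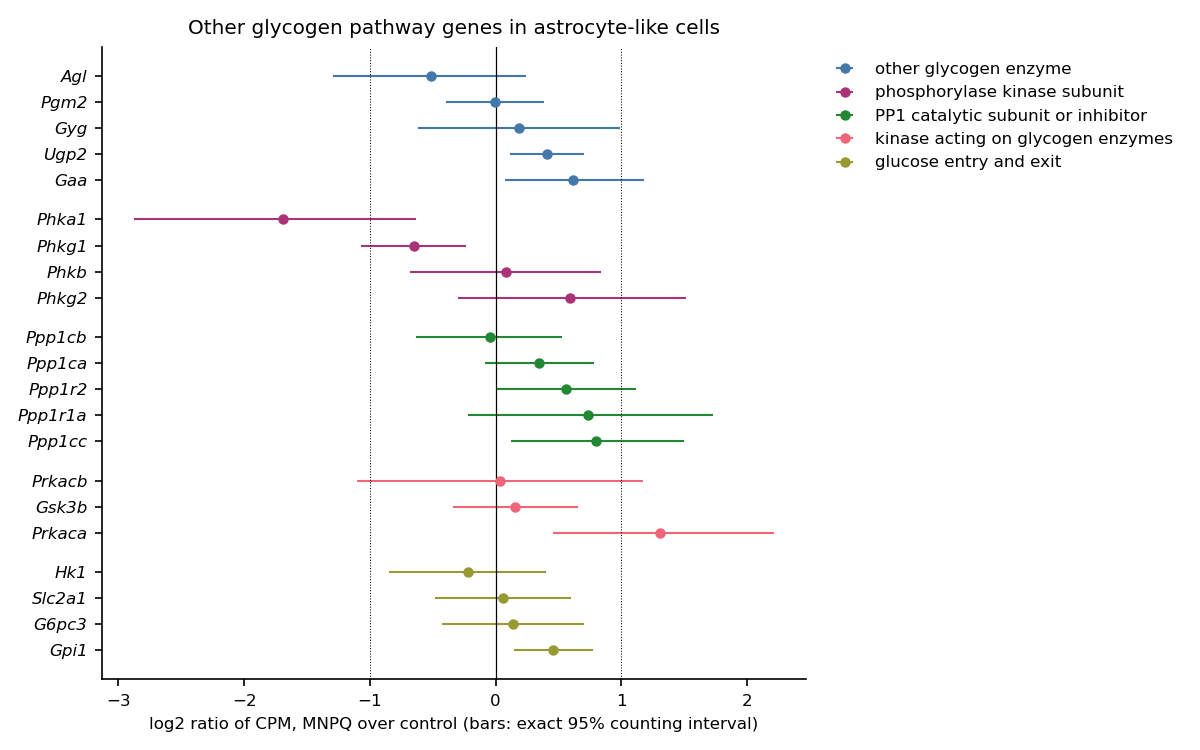
Log2 ratio of CPM, MNPQ over control, in astrocyte-like cells (horizontal axis) for the 21 other pathway genes with at least 20 UMIs (vertical axis), coloured by role. Points are ratios of 1 library over the other and bars are exact 95% counting intervals; the dotted lines mark a 2-fold difference, which Prkaca at 1.30 and Phka1 at -1.69 pass.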

How the data were processed

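The deposited files hold UMI counts per gene and cell barcode, which the authors made with Cell Ranger, version 3.0.2 according to the file headers, on the build mm10, per the submitters' processing notes; how the authors chose barcodes is not given in the sources used here. Barcodes with fewer than 200 genes or over 20% mitochondrial UMIs were dropped, which kept 882 of 1105 control and 854 of 965 MNPQ barcodes. After scaling each cell to 10000 and taking logs, cells were clustered on 2000 variable genes and 30 principal components with 15 neighbours (Leiden, resolution 1.0, scanpy 1.11.5). Clusters of 40 or more cells that were mixed or met no list were split again with 8 neighbours. Clusters were named from 17 marker lists, and a name ends in -like since it rests on markers alone. Scrublet called 9 control and 6 MNPQ doublets, which stayed in; 2 barcode sequences occurred in both libraries.

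UMIs were summed per class and library and divided by the class total (CPM). Levels have exact Poisson, shares exact Clopper-Pearson and log2 ratios exact conditional binomial 95% intervals, which cover counting error only; UMIs of 1 library are not replicates, so no test was made. A ratio was called past 2-fold with at least 20 UMIs over both libraries. The code for the log2 ratio intervals was run on simulated Poisson counts. Those counts follow the model the intervals assume and hold no variation between cells, animals or libraries, so the run checks the code only. The members and lists were chosen with earlier results of these data known. All members are named; of the other pathway genes, the highest, the lowest, the most abundant and any past 2-fold. Phkg1, Gaa, Ppp1cc, Hk2, the undetected genes and the regional genes Agt, Itih3, Lhx2, Slc17a6 and Slc17a7 were named after their values were seen. Gene positions come from GENCODE M21 on mm10, and RefSeq promoters matched all 7 members.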

Additional observations from a re-analysis of the deposited data

How the results depend on the processing

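Of 255 values recomputed under alternative settings, 232 stayed inside the counting interval of the main value (for the median of the pathway list, a binomial interval of the median over its genes), 23 lay outside it, and 0 reversed a called direction. Only the Ppp1r3g ratios were called past 2-fold, so only their values could be counted as reversed. For other members, some of the values below have the opposite sign to the main value. Ppp1r3g in astrocyte-like cells ranged from 1.29 to 2.20 on the log2 scale over 20 alternatives and was past 2-fold in all 20. Its value that moved was 1.29, in deep cells without Agt. Ppp1r3g was picked for this contrast and the alternatives largely reuse the same UMIs, so that count adds no independent support to the ratio. The splits by Agt and Lhx2 and the equal weighting of the 3 clusters were chosen after seeing the data. In astrocyte-like cells, thinning to 500 UMIs gave -1.11 for Ppp1r3c, -2.24 for Ppp1r3d and 0.67 for Gys1, and thinning to 1000 UMIs gave 0.17 for Pygb. Cells under 1000 UMIs gave -0.89 for Ppp1r3c and -2.67 for Ppp1r3d. Deep cells without Agt gave 1.29 for Ppp1r3d, 0.55 for Gys1 and -0.58 for Pygm. Deep cells with Lhx2 gave 1.19 for Ppp1r3c, 0.80 for Gys1 and -0.82 for Pygm. Equal weighting of clusters gave -0.74 for Pygb and 1.08 for Pygm, where the Itih3-led cluster has 5 MNPQ cells. Over all kept cells, thinning to 500 UMIs gave -1.20 for Ppp1r3c, -1.76 for Ppp1r3d, -0.69 for Gbe1 and 0.10 for Pygb, thinning to 1000 UMIs gave 0.11 for Pygb, and cells under 1000 UMIs gave -0.61 for Ppp1r3c, -1.61 for Ppp1r3d and 0.17 for Pygb. The causes of these moves were not tested; each of these settings counts fewer UMIs or weights them differently.

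Thinning to 1000 UMIs gave no ratio for Ppp1r3g, since it drew 0 control UMIs where 4.54 were expected, and 20 MNPQ UMIs where 20.6 were expected. Gys1 and Gbe1 gave no ratio in astrocyte-like cells under 1000 UMIs. The depth limits Ppp1r3d, Gys1 and Gbe1 most, with 6 to 15 UMIs per library in astrocyte-like cells. No paired analysis was possible because each group has 1 library.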

Other observations

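Hk2, a hexokinase that feeds glucose into metabolism, was a microglial gene in these cells: 56 of 56 control UMIs and 35 of 37 MNPQ UMIs lay in microglia-like cells, at 169 and 145 CPM, a log2 ratio of -0.22 (-0.87 to 0.41). Astrocyte-like cells had 0 Hk2 UMIs in both libraries, and their hexokinase UMIs were of Hk1, at 95.5 and 82.1 CPM. Slc2a1, the glucose transporter of the blood-brain barrier, stood at 1482 CPM in endothelial-like cells of both libraries, with a log2 ratio of 0.00 (-0.20 to 0.20), and at 113 and 117 CPM in astrocyte-like cells. Pygl, the liver form of phosphorylase, had 21 control and 7 MNPQ UMIs over all kept cells, a log2 ratio of -1.55 (-3.03 to -0.26).

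The barcodes left out by the cell filter, 223 control and 111 MNPQ barcodes, held few UMIs of the members: 1 and 0 of Ppp1r3g, 2 and 4 of Ppp1r3c, 7 and 3 of Pygb, and 2 and 1 of Pygm. Outside astrocyte-like clusters Pygm had 11 control and 23 MNPQ UMIs, a log2 ratio of 1.10 (0.00 to 2.28), over a pool of classes whose sizes differed between the libraries.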
